A study of Mus musculus with 6 samples.

Results

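The genes described here are 9 components of the inflammasome and its effector steps, *Nlrp3*, *Nlrp1a*, *Aim2*, *Pycard*, *Casp1*, *Casp4*, *Casp12*, *Gsdmd* and *Il18*, chosen by symbol from the 26264 genes of a table of normalized counts. Expression was measured by bulk RNA-seq of hematopoietic stem cells (HSCs), sorted as Lineage-Sca1+cKit+ CD150+CD48- bone marrow cells from untreated 8-week-old female mice, with 1 library for each of 3 WT and 3 *Irf1-/-* mice. WT mice were C57Bl/6, and *Irf1-/-* mice carried the B6.129S2-Irf1 tm1Mak/J allele in the whole body, so that the gene was targeted in every cell of the animal and not in HSCs alone. The comparison asks how these transcripts differ in unstimulated HSCs without this interferon-responsive transcription factor.

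Inflammasomes are cytosolic complexes in which a sensor of microbial products or cell damage recruits, directly or through the adaptor ASC, the protease caspase-1. Caspase-1 cleaves gasdermin D, whose released fragment forms pores in the plasma membrane, and matures the cytokines IL-1β and IL-18, while in the noncanonical route caspase-11, the product of *Casp4*, is activated by intracellular lipopolysaccharide and cleaves gasdermin D itself. In blood progenitors the pathway has been linked to pyroptotic death during infection and chemotherapy.

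Reads on genes numbered 43138521, 57281017 and 45129929 in *Irf1-/-* replicates 1, 2 and 3, and 59658080, 45332573 and 43267486 in the corresponding WT libraries. The normalized count of the targeted gene *Irf1* was 9267, 9524 and 9287 in the *Irf1-/-* libraries and 10122, 11120 and 12057 in the WT libraries. Every *Irf1-/-* library was thus below every WT library, but reads of the gene were still counted, and the fold change of −0.24 (log2, SE 0.088) did not pass the test (limma adjusted *P* = 0.170). The table holds 1 value per gene, so the disrupted exons could not be viewed on their own.

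The libraries held abundant transcripts of HSC markers, with *Kit* between 77902 and 88715 and *Hlf* between 12357 and 17762 normalized counts. WT replicate 3 stood apart from the other libraries in neutrophil transcripts. Its normalized counts were 1033 for *S100a8*, 1246 for *S100a9*, 2535 for *Ngp*, 2032 for *Ltf*, 666 for *Camp* and 46.3 for *Ly6g*. The summed level of these 6 neutrophil markers was 7557 in this library, against 169 and 96.9 in the other WT libraries and 193, 279 and 508 in the *Irf1-/-* libraries. Values without this library are given below where it matters. Of 10 monocyte and macrophage markers, cells in which inflammasome genes are typically abundant, 0 were called in either direction by limma and 0 had an unadjusted *P* under 0.05, a level that 2863 of the 17404 tested genes (16.5%) reached. Their summed level was 2113, 1711 and 2189 in *Irf1-/-* libraries and 1627, 2968 and 1897 in WT libraries, with *C1qb* the most abundant, and none was at 0 in all libraries. These sums overlapped between genotypes. The WT value of 2968 included 808 normalized counts of *Ly6c2*, a gene at 2.47 and 60.2 in the other WT libraries. Of the markers of dendritic cells, B cells, and T and NK cells, 0 were called in limma and 1 (*Nkg7*) had an unadjusted *P* under 0.05. Among erythroid markers *Klf1* was called lower (log2 fold change −0.72, limma adjusted *P* = 0.0361), and the 4 globin genes of the list were at 0 in every library. *Alas2*, of the same list, was not called. Its normalized counts were 35.2, 221 and 55.0 in *Irf1-/-* and 50.2, 487 and 68.9 in WT libraries, highest in replicate 2 of each genotype. Of the 8 HSC markers, 1 was called higher (*Fgd5*, log2 fold change 0.83) and 0 lower, and limma's *P* was under 0.05 for 3 with adjustment and for 6 without. The markers under the fold change threshold among these 3 were *Procr* (0.52, limma adjusted *P* = 0.0112) and *Ly6a*, which encodes the sorted antigen Sca1 (−0.43, limma adjusted *P* = 0.0245). In the list, 6 markers had a positive and 2 a negative log2 fold change, with a median of 0.24. Without overlap between genotypes, 4 were higher and 1 lower in *Irf1-/-* libraries, against 10.6% and 9.27% of all tested genes. Over all tested genes, 0.96% were called higher and 0.954% lower. An adjusted *P* (limma) under 0.05 was reached by 561 of the 17404 genes, and an unadjusted one by 16.5%. The part of these marker transcripts in the results below was not tested.

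Genes are called higher or lower here when limma's adjusted *P* was under 0.05 and the log2 fold change (*Irf1-/-* over WT) exceeded 0.58 in either direction. Fold changes were computed after adding 1 to each normalized count, which understates those of genes with low counts. Of the 9 members, all of which passed the filter on low values (a mean of at least 10 normalized counts), 3 were called lower in *Irf1-/-* HSCs (*Casp1*, *Casp12* and *Nlrp1a*) and 0 higher, and edgeR and DESeq2 gave the same counts. Over the 17404 tested genes, 0.954% (166) were called lower and 0.96% (167) higher. Without WT replicate 3, limma called 265 lower and 304 higher of 17202 tested genes. The *Irf1-/-* libraries lay below all WT libraries for 5 members, namely *Casp1*, *Casp12*, *Nlrp1a*, *Pycard* and *Gsdmd*, and above them for 0, against 9.27% and 10.6% of all tested genes. The members had a median log2 fold change of −0.28, against −0.0028 for all tested genes. An unadjusted *P* (limma) under 0.05 was reached by 5 members (55.6%), against 16.5% of all tested genes. In bulk libraries, fewer cells that express a gene and less RNA of the gene per cell cannot be told apart.

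Among the sensors, *Nlrp1a*, which encodes a sensor whose activation in mice is known to deplete hematopoietic progenitors, had normalized counts of 179, 213 and 167 in *Irf1-/-* HSCs and of 381, 304 and 345 in WT HSCs. The genotypes did not overlap, and all *Irf1-/-* libraries were low. *Nlrp1a* fell to 54.3% of its WT mean (log2 fold change −0.88, SE 0.21, limma adjusted *P* = 0.0368). This call was close to the threshold and was lost when any library other than *Irf1-/-* replicate 2 was left out. The adjusted *P* (limma) was then 0.113 without *Irf1-/-* replicate 1, 0.151 without *Irf1-/-* replicate 3, 0.158 without WT replicate 1, 0.0783 without WT replicate 2 and 0.0515 without WT replicate 3, with log2 fold changes that stayed between −0.96 and −0.80. *Nlrp1b*, a close paralog with which reads may be shared, had low counts, with 10.7, 6.05 and 12.5 normalized counts in *Irf1-/-* and 28.8, 22.5 and 49.5 in WT HSCs. These values did not overlap either, but the difference did not pass the test (log2 fold change −1.67, SE 0.63, limma adjusted *P* = 0.186).

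*Nlrp3*, the sensor of potassium efflux and membrane damage, had low counts. Its normalized counts were 34.1, 15.6 and 18.7 in *Irf1-/-* and 18.1, 56.3 and 51.6 in WT HSCs, which rest on 18 to 50 reads per library. WT replicate 1 lay within the *Irf1-/-* range, so the genotypes overlapped, the WT libraries differed widely among themselves, and the difference did not pass the test (log2 fold change −0.78, 95% confidence interval −2.02 to 0.47, limma adjusted *P* = 0.585). With WT replicate 1 left out the fold change became −1.29, and with WT replicate 2 left out −0.49. Without WT replicate 3, the library with neutrophil transcripts, it was −0.55. *Aim2*, the sensor of cytosolic double-stranded DNA, had 1163, 804 and 1231 normalized counts in *Irf1-/-* and 750, 980 and 1022 in WT HSCs. It was the member with a positive log2 fold change (0.20, 95% confidence interval −0.17 to 0.58), with overlapping genotypes and an adjusted *P* of 0.643 in limma. This value moved with single libraries, to 0.066 without WT replicate 1, 0.089 without *Irf1-/-* replicate 3, 0.13 without *Irf1-/-* replicate 1 and 0.40 without *Irf1-/-* replicate 2.

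*Nlrp3* and *Nlrp1a* lie on chromosome 11, as does *Irf1*, and in the order of genes in GRCm38.p6 they are separated from it by 72 and 281 tested genes. For genes linked to *Irf1*, the loss of IRF1 and any remaining DNA of the strain in which the allele was made cannot be told apart. Of the 10 tested genes on each side of *Nlrp1a*, limma called 0, while 4 were under 0.05 in unadjusted *P*, and the counts for *Nlrp3* were 0 and 3. Among the 10 nearest tested neighbours to either side of *Irf1* itself, 1 was called lower (*Gm12216*), 0 higher, and 4 had an unadjusted *P* under 0.05. Over all tested genes the latter share was 16.5%.

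*Pycard*, which encodes the adaptor ASC, had 2528, 3145 and 2841 normalized counts in *Irf1-/-* and 3164, 3800 and 3315 in WT HSCs. The *Irf1-/-* values were all below the WT values, by a narrow margin between *Irf1-/-* replicate 2 and WT replicate 1. The difference did not pass the test after adjustment (log2 fold change −0.27, SE 0.11, limma adjusted *P* = 0.216).

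The inflammatory caspases differed among themselves. *Casp1*, the protease of the canonical inflammasome, had 287, 290 and 412 normalized counts in *Irf1-/-* HSCs, and 2031, 2008 and 2058 in WT HSCs. WT libraries were nearly identical, and the highest *Irf1-/-* library was far below them. *Casp1* fell to 16.2% of its WT mean, from 2032 ± 24.9 to 330 ± 71.4 (SD, *n* = 3 mice each), with a log2 fold change of −2.64 (SE 0.15, limma adjusted *P* = 1.89e-07). *Casp12*, a relative in the same gene cluster whose role in the inflammasome is less settled, had 344, 266 and 414 normalized counts in *Irf1-/-* HSCs, and 1993, 1950 and 1675 in WT HSCs. Again all *Irf1-/-* libraries were low and all WT libraries high. *Casp12* fell to 18.2% of its WT mean (log2 fold change −2.47, SE 0.17, limma adjusted *P* = 8.48e-07). Both calls held without WT replicate 3, the library with neutrophil transcripts, where the log2 fold changes were −2.63 and −2.55 (limma adjusted *P* = 3.61e-06 and 6.08e-06).

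*Casp4*, which encodes the lipopolysaccharide-activated caspase-11, had 1060, 1090 and 1119 normalized counts in *Irf1-/-* and 1115, 1368 and 1255 in WT HSCs. *Irf1-/-* replicate 3 and WT replicate 1 overlapped, and the log2 fold change was −0.19 (95% confidence interval −0.45 to 0.069, limma adjusted *P* = 0.499), or −0.12 without WT replicate 2. The ratio of *Casp1* to *Casp4* normalized counts within a library, which does not depend on the scaling between libraries, was 0.271, 0.266 and 0.368 in *Irf1-/-* and 1.82, 1.47 and 1.64 in WT HSCs. The ratio of *Casp12* to *Casp4* was 0.325, 0.244 and 0.37 in *Irf1-/-* and 1.79, 1.43 and 1.33 in WT HSCs. Both ratios were lower in every *Irf1-/-* library than in any WT library. These ratios were chosen after the values of the genes were seen and are given without a test. The ratio of *Casp1* to *Casp12* was 0.833, 1.09 and 0.995 in *Irf1-/-* and 1.02, 1.03 and 1.23 in WT HSCs, and overlapped between genotypes.

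The genes *Casp1*, *Casp4* and *Casp12* follow one another in this order on chromosome 9, and *Casp4* thus sits between the caspase genes that fell. Of the 5 tested genes on either side of this cluster, 0 were called in limma. Their log2 fold changes lay between −0.70 (*Mmp3*) and 0.77 (*Gucy1a2*), both of low abundance, and those of *Msantd4* (−0.10) and *Dcun1d5* (−0.18), the most abundant of them, were small. All of their 95% confidence intervals included 0.

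**Figure D1:**
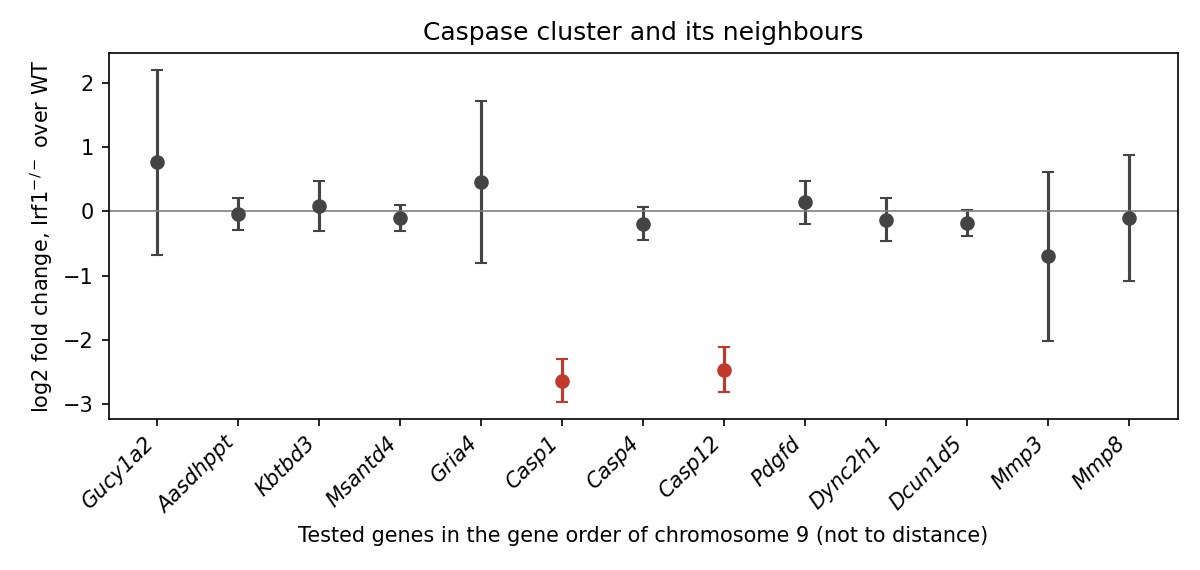
Log2 fold changes (*Irf1-/-* over WT) of the caspase cluster and the 5 tested genes on each side, in the gene order of GRCm38.p6, with limma's 95% confidence intervals. Genes called lower are red, and *Casp4* (−0.19) lies between *Casp1* (−2.64) and *Casp12* (−2.47) in position but not in fold change.

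The promoters of the caspase genes are shown because neighbours in this cluster differed. RefSeq windows (GRCm38.p6, 250 bases before to 50 after the start) were found for 8 members, in 10 windows, and for *Gsdmd* none was listed. They were searched on both strands for GAAANNGAAA, the core of the interferon-stimulated response element, and for TTCNNNGAA, the element bound by STAT dimers, which reads the same on both strands. The motifs can overlap, as both may contain GAA. Of 32851 promoter windows of this length, 3.44% held the former and 8.3% the latter. The former was in 0 of the 8 members' windows, which says only that these letters are not in them. The latter was in the window of *Casp12* alone, as TTCTGGGAA starting 102 and 36 bases before the start. The windows, all on the plus strand, are chr9:5298267-5298566 for *Casp1*, chr9:5308599-5308898 for *Casp4* (the first of its windows) and chr9:5345226-5345525 for *Casp12*. Capitals mark the matches.
Casp1 promoter: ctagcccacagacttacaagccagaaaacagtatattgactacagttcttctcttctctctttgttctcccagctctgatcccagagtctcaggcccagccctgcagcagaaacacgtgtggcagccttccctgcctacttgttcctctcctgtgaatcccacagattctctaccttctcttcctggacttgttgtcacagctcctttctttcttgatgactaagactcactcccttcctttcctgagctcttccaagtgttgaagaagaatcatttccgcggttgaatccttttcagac
Casp4 promoter: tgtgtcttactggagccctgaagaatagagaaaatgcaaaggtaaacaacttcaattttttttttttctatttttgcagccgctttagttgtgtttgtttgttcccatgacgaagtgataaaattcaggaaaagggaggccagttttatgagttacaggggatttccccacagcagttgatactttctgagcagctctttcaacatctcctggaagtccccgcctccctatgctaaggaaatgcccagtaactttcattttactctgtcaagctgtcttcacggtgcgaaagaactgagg
Casp12 promoter: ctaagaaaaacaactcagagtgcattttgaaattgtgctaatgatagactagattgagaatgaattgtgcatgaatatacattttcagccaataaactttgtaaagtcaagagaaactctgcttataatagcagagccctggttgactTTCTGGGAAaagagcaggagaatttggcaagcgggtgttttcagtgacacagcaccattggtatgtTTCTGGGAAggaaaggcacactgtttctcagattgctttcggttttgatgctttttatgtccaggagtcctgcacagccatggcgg

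*Gsdmd*, which encodes the pore-forming substrate of caspase-1 and caspase-11, had 5985, 5225 and 5733 normalized counts in *Irf1-/-* and 6511, 6723 and 6180 in WT HSCs. The genotypes were close but did not overlap. This difference did not pass the test after adjustment (log2 fold change −0.20, SE 0.088, unadjusted 95% confidence interval −0.39 to −0.0090, limma adjusted *P* = 0.279). *Il18*, a caspase-1 substrate among the cytokines, had 586, 711 and 697 normalized counts in *Irf1-/-* and 862, 667 and 906 in WT HSCs. WT replicate 2 lay within the *Irf1-/-* range, and the log2 fold change was −0.28 (95% confidence interval −0.62 to 0.054, limma adjusted *P* = 0.417).

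To compare levels between genes, normalized counts were divided by the exon length of GENCODE vM1 in kilobases, which was available for 14533 (83.5%) of the tested genes. In WT HSCs *Gsdmd* (3644 per kb, percentile 94.0 of these genes) and *Pycard* (2439, percentile 89.6) were highest, followed by *Casp1* (1358) and *Il18* (1156), whose libraries did not overlap. *Casp12* (494), *Casp4* (336) and *Aim2* (262) were intermediate, and the libraries of *Casp4* did not overlap with those of *Casp12* or *Aim2*. The sensors *Nlrp1a* (65.0, percentile 34.2) and *Nlrp3* (10.4, percentile 13.5) were lowest. In *Irf1-/-* HSCs *Casp1* was at 220 per kb (percentile 46.9), below *Casp4* at 294, and *Casp12* was at 90.0. In each *Irf1-/-* library *Gsdmd*, *Pycard* and *Il18* were above all 3 caspases on this scale, whereas in WT HSCs *Il18* was below *Casp1*.

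The genes nearest to each called member in profile were found by the root mean square distance of log2 values centred on each gene's mean, over the 6 libraries. Nearest to *Casp1* were *Gm4951* (distance 0.165), *Casp12* (0.167) and *AW112010* (0.205). Nearest to *Casp12* were *Casp1*, *Gm4951* (0.171) and *Il12rb1* (0.205), so that each of the caspase genes that fell was among the nearest of the other. The distance takes in the difference between genotypes, so genes with like fold changes lie near each other. The log2 fold changes of *Gm4951*, *AW112010* and *Il12rb1* were −2.70, −2.98 and −2.40. *Gm4951* went from a WT mean of 1600 to an *Irf1-/-* mean of 247 normalized counts. The genes nearest to *Nlrp1a* were *H2bc11* (0.116), *Psme2* (0.121), which encodes a proteasome activator subunit, and *Gpc1* (0.130). *Psme2* and *Gpc1* were called lower (limma adjusted *P* = 0.000164 and 0.00180). *H2bc11*, with a WT mean of 48.7 normalized counts, was not called (limma adjusted *P* = 0.444).

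Of 39 other genes of the pathway, 37 were in the table and 35 passed the filter. limma called 2 of these lower (*Il18bp* and *Naip6*) and 0 higher, against 0.954% and 0.96% of all tested genes, and 7 (20%, against 16.5% of all tested genes) had an unadjusted *P* under 0.05. For these genes edgeR called 0 higher and DESeq2 1 (*Txnip*). Their median log2 fold change was −0.098. *Il18bp*, which encodes a secreted decoy that binds IL-18, had 163, 175 and 165 normalized counts in *Irf1-/-* and 836, 1210 and 915 in WT HSCs. All *Irf1-/-* libraries were low and close together. The mean was 5.88-fold lower in *Irf1-/-* HSCs (log2 fold change −2.53, SE 0.18, limma adjusted *P* = 2.21e-06). The ratio of *Il18* to *Il18bp* normalized counts within a library was accordingly 3.59, 4.05 and 4.22 in *Irf1-/-* and 1.03, 0.551 and 0.989 in WT HSCs, a description chosen after the values were seen.

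*Naip6*, a member of the NAIP family whose proteins detect flagellin and secretion system components for NLRC4, had 35.2, 44.1 and 45.7 normalized counts in *Irf1-/-* and 118, 105 and 169 in WT HSCs. The fall of −1.60 on the log2 scale (SE 0.35, limma adjusted *P* = 0.0254) was no longer called when any library other than *Irf1-/-* replicate 2 was left out (limma adjusted *P* between 0.0574 and 0.0853). Reads can be shared among the similar *Naip* genes, so the value of this gene alone is uncertain. The abundant *Naip5* (2226, 1848 and 2382 against 2511, 2505 and 2266 normalized counts) overlapped between genotypes, with a log2 fold change of −0.18. *Nlrc4*, their signalling partner, had 62.9, 57.9 and 63.3 normalized counts in *Irf1-/-* and 17.3, 33.8 and 39.8 in WT HSCs, without overlap but not past the test (log2 fold change 1.07, limma adjusted *P* = 0.251).

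Among regulators of NLRP3, *Txnip* had the highest counts, at 60842, 37707 and 60014 in *Irf1-/-* and 30516, 37340 and 37176 in WT HSCs. The genotypes did not overlap, but *Irf1-/-* replicate 2 was close to the WT libraries, and the gene was not called (log2 fold change 0.57, limma adjusted *P* = 0.0703). It was called higher when this library was left out, and by DESeq2. *P2rx7*, the ATP-gated channel upstream of NLRP3, was not called either (log2 fold change 0.83, limma adjusted *P* = 0.199). Transcripts of the other caspase-1 substrate, *Il1b*, were low and overlapped, between 23.3 and 82.1 normalized counts in *Irf1-/-* and between 44.4 and 125 in WT HSCs. *Ninj1*, which encodes the protein that ruptures the membrane after pore formation, was abundant in every library (10756 to 14038 normalized counts) and overlapped.

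**Figure D2:**
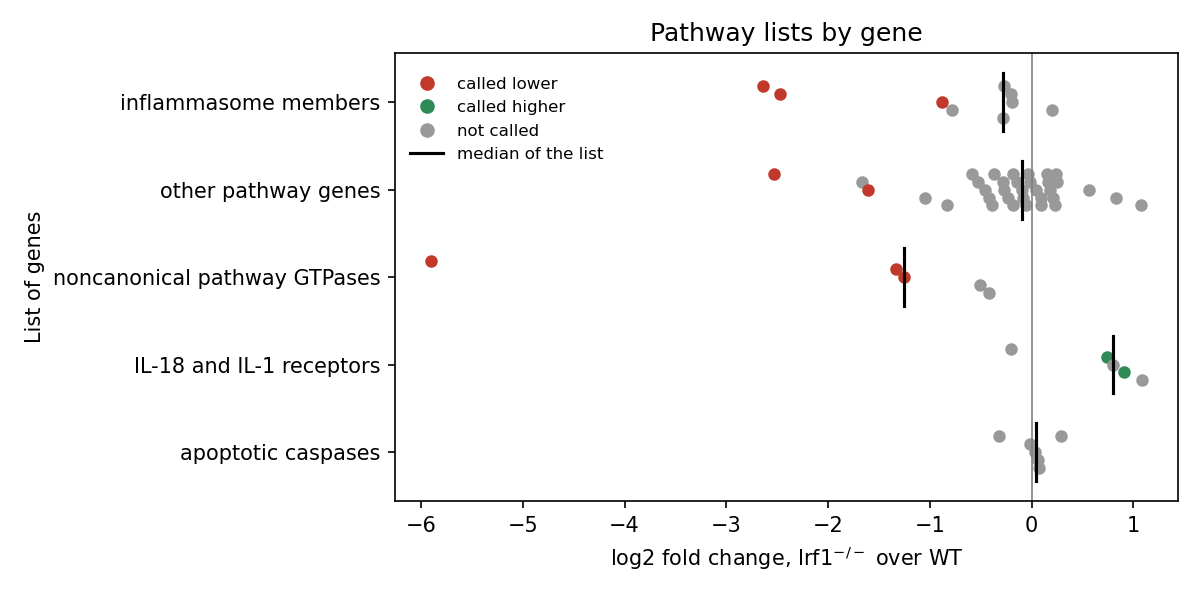
Log2 fold changes (*Irf1-/-* over WT) of each tested gene in 5 lists, with 1 point per gene, vertical offsets for legibility and a line at each median. Points called lower are red and points called higher are green, and the medians are −0.28 for the members, −0.098 for other pathway genes, −1.25 for noncanonical pathway GTPases, 0.80 for IL-18 and IL-1 receptors and 0.047 for apoptotic caspases.

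Of 5 GTPases that expose bacterial lipopolysaccharide to caspase-11 or assist AIM2, 3 were called lower in *Irf1-/-* HSCs and 0 higher, against 0.954% and 0.96% of all tested genes, and the median log2 fold change of the list was −1.25. These were *Gm12250*, which encodes Irgb10 (−5.91), *Gbp3* (−1.33) and *Gbp2* (−1.25). *Gbp7* passed the adjusted threshold but not that on the fold change (−0.42, limma adjusted *P* = 0.0138), and *Gbp5* passed neither (−0.51, limma adjusted *P* = 0.0750). Reads can be shared between *Gbp* genes.

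Of 5 receptor genes for IL-18 and IL-1, 2 were called higher in *Irf1-/-* HSCs and 0 lower, against 0.96% and 0.954% of all tested genes. *Il18rap*, which encodes an accessory subunit for IL-18 binding, had 1889, 1360 and 1498 normalized counts in *Irf1-/-* and 908, 633 and 999 in WT HSCs. It rose with a log2 fold change of 0.91 (limma adjusted *P* = 0.0103), which was not called without *Irf1-/-* replicate 1 (limma adjusted *P* = 0.0659). *Il1r1* rose by 0.74 (limma adjusted *P* = 0.0217) and was not called in the absence of *Irf1-/-* replicate 1 (limma adjusted *P* = 0.115), *Irf1-/-* replicate 2 (0.0714), WT replicate 1 (0.0751) or WT replicate 2 (0.0641). The ligand binding chain *Il18r1* was at 244, 261 and 287 against 99.6, 93.5 and 202 normalized counts, without overlap, but did not pass the test (log2 fold change 1.09, limma adjusted *P* = 0.0682). *Il1rap* went the other way, with every *Irf1-/-* library below every WT library, and was not called (log2 fold change −0.20, limma adjusted *P* = 0.413).

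Apoptotic caspases served as a comparison within the protease family. Of the 6 genes of this list, 0 were called in limma, 2 had an unadjusted *P* under 0.05 (16.5% over all tested genes), and the median log2 fold change was 0.047. Among them, the initiator *Casp9* had a log2 fold change of 0.29 (limma adjusted *P* = 0.195).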

How the data were processed

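Bulk RNA-seq was analysed from HSCs of 3 WT and 3 *Irf1-/-* mice, with 1 library per mouse, grouped by their labels. Reads were trimmed with Trim Galore, aligned with HISAT2 and counted per gene with Htseq-count by the authors. The submitters' processing notes name the build mm39. Versions, annotation and strand setting are not given in the sources used here. The deposited table gives a signal derived from counts, which the authors scaled with DESeq2 by 1 size factor for every library. Dividing by the smallest step of a library gave whole numbers of reads for 100% of values (tolerance 0.01 reads), so whole reads were recovered.

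The comparison of genotypes used limma 3.58.1 (R 4.3.3) with an intensity trend. It was fitted to log2 values after adding a pseudocount of 1, for genes averaging 10 or more normalized counts, and *P* values were adjusted over all tested genes by the Benjamini-Hochberg method. A count model was kept as an alternative because the table holds normalized values. edgeR 4.0.16 and DESeq2 1.42.0 were run on the recovered reads. Other alternatives were the pseudocount, the filter, the trend, the scaling, the fold change threshold, the replicate block and each library left out. Libraries of the same genotype differed by more than counting noise (16.0 to 30.0 chi-square units per gene), and none was counted as a repeat of another.

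The genes named are the members, *Irf1*, genes of the lists, and for each called member the 3 genes nearest to it in profile. Some genes that this rule covers are not reported here. The members and lists were chosen with earlier results of these data known. Ratios of transcripts, and the named genes that neighbour the caspase cluster or *Irf1*, fall outside the rule on named genes and were chosen after the values were seen. Exon lengths were taken from GENCODE vM1, promoter windows from RefSeq (GRCm38.p6), and gene order from a RefSeq gene table of the same assembly. Figures were drawn with matplotlib 3.10.9.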

Additional observations from a re-analysis of the deposited data

How the results depend on the processing

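The falls of *Casp1* and *Casp12* kept their direction and their call in all 17 alternatives, with log2 fold changes between −2.81 and −2.55 and between −2.62 and −2.30, and adjusted *P* in limma up to 0.0116 and 0.0214 (without the trend). *Nlrp1a* and *Naip6* each lost their call in 6 alternatives, 5 of them with a library left out, which also leaves fewer samples. Without the trend, the adjusted *P* in limma was 0.127 for *Nlrp1a* and 0.0876 for *Naip6*, and *Il18rap*, *Il1r1* and *Gbp3* were not called. No member changed direction in the alternatives that tested it.

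Without the trend in limma, 33 genes were called lower and 7 higher, and 1 pathway gene lower. Without the fold change threshold, 260 were called lower and 301 higher. DESeq2 called 209 genes lower and 295 higher, and 1 pathway gene higher, and edgeR called 161 lower and 162 higher. With the replicate block, 1 pathway gene was called higher (*P2rx7*), 196 genes lower and 219 higher, and the members called were the same. Deviations of each library from its genotype mean were correlated between genotypes. Correlations of same-numbered libraries were −0.094, 0.25 and 0.15, and those of differently numbered libraries lay between −0.33 and 0.25. With deviations from a mean of only 3 libraries, these values cannot show whether the numbers pair the mice. With each library left out in turn, 105 to 265 genes were called lower and 83 to 304 higher, 2 to 3 members lower, and 1 to 2 pathway genes lower and 0 to 1 higher. The counts of 265 and 304 were those without WT replicate 3. The cause of these shifts was not tested.

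*Nlrp3*, *Nlrp1b* and *Nlrc4* rest on few reads. The reads carry no molecular identifiers. The intervals of *Pycard*, *Gsdmd*, *Casp4* and *Il18* rest on 3 mice per genotype, with variances that limma moderated over all tested genes.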
